A study of Arabidopsis thaliana with 12 samples.

Results

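The 10 plasma membrane intrinsic protein (PIP) genes were measured in old and young rosette leaves of Arabidopsis thaliana Col-0 after a spray with abscisic acid (ABA) or mock solution. The 10 genes were taken by their locus identifiers as a named set of family members, with earlier results of these data known, out of 32678 genes in the count table, and all 10 were among the 18291 genes tested. They are PIP1;1 to PIP1;5, PIP2;1, PIP2;2 and PIP2;6 to PIP2;8, and below they carry the older letter names that RefSeq lists for the same loci. PIP1A is PIP1;1 (AT3G61430), PIP1B is PIP1;2 (AT2G45960), PIP1C is PIP1;3 (AT1G01620), PIP1E is PIP1;4 (AT4G00430) and PIP1D is PIP1;5 (AT4G23400). PIP2A is PIP2;1 (AT3G53420), PIP2B is PIP2;2 (AT2G37170) and PIP2E is PIP2;6 (AT2G39010), while PIP3A is PIP2;7 (AT4G35100) and PIP3B is PIP2;8 (AT2G16850), which belong to the PIP2 class in spite of the older name.

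Leaf 7 (L7, old) and leaf 12 (L12, young) came from wild-type plants aged 4 to 5 weeks, and leaves were taken 48 h after the spray. The ABA solution held 500 µM ABA, and both the ABA and the mock solution held 0.5% ethanol and a detergent, so every group received ethanol and a spray. RNA-seq was done on 3 replicates of each of 4 groups (mock L7, ABA L7, mock L12 and ABA L12), 12 libraries in all, from an experiment that was repeated 3 times. The design asks whether the PIP transcripts respond to ABA in each leaf, whether the response differs with leaf age, and whether the leaves differ without ABA.

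PIP proteins are water channels of the plasma membrane, each built as a tetramer of pores, and they set much of the water permeability of plant cells. PIP2 proteins form active water channels on their own, whereas PIP1 proteins usually need a PIP2 partner to leave the endoplasmic reticulum and reach the plasma membrane. Several of them also pass hydrogen peroxide or carbon dioxide. In leaves they carry water out of the veins and across the bundle sheath and mesophyll, and ABA is known to lower this flow and to close stomata.

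All 10 genes have 4 exons in the TAIR10.1 annotation, with longest transcripts of 1328 (PIP1D) to 2148 bases (PIP2E). The 5 PIP1 coding sequences were 79.5% to 87.6% identical to one another, and a PIP1 and a PIP2 coding sequence 63.2% to 68.7%. Within the PIP2 class, the highest identity was between PIP2B and its neighbour PIP2C (PIP2;3, AT2G37180, a PIP gene outside the 10) at 94.8%, followed by PIP2A and PIP2B at 85.8% and by PIP3A and PIP3B at 84%. PIP2B (chromosome 2, 15613368 to 15615022, minus strand) and PIP2C (15617635 to 15619155, plus strand) lie head to head, and 254 of the 1296 windows of 50 bases in the PIP2B transcript (19.6%) also occur in that of PIP2C. The other 9 genes share no window of 50 bases with another gene. The longest stretch shared by PIP2B and PIP2C is 242 coding bases that span exons 1 and 2, at chr2:15614255-15614617 on the minus strand for PIP2B and chr2:15617953-15618315 on the plus strand for PIP2C. It is printed because reads inside it cannot be assigned to either gene by their sequence, which bears on the counts of PIP2B.
PIP2B and PIP2C, shared bases: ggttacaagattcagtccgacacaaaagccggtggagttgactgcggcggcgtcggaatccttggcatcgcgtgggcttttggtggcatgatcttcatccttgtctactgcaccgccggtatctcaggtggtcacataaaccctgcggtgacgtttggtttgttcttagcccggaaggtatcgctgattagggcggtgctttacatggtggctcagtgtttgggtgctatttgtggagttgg

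PIP1B, PIP2A and PIP2B were the members that passed the thresholds for ABA in both leaves, as described below, and PIP1C was the member with a searched motif. The 250 bases before the annotated start of these 4 genes are shown. They come from the TAIR10.1 genome (RefSeq) and lie at chr2:18909831-18910080 on the plus strand (PIP1B), chr3:19805731-19805980 on the minus strand (PIP2A), chr2:15615023-15615272 on the minus strand (PIP2B) and chr1:227544-227793 on the minus strand (PIP1C). Capitals mark a match to a searched motif on either strand.
PIP1B: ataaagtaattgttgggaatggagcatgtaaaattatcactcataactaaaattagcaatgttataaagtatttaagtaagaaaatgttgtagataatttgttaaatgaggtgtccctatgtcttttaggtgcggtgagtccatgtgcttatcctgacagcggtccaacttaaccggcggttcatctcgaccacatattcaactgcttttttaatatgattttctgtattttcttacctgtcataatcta
PIP2A: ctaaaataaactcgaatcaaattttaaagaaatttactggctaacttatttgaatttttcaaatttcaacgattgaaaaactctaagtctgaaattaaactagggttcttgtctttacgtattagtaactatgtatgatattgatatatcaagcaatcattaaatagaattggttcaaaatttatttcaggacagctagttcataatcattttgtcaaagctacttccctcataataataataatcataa
PIP2B: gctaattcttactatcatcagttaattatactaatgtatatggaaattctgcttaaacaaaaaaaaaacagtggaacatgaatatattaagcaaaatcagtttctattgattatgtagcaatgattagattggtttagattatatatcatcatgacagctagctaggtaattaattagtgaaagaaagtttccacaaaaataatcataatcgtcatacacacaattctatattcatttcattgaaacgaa
PIP1C: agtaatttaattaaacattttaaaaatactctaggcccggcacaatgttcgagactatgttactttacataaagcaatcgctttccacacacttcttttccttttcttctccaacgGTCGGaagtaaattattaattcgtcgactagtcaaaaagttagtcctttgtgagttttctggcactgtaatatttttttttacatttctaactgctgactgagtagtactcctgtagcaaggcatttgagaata

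The core of the ABA-responsive element, ACGTG, was searched on both strands, as were CACGTG, the G-box, which contains it, and CCGAC, the core of the dehydration-responsive element. ACGTG was in 0 of the 10 PIP windows and in 22.9% of the 27443 windows of the same length in the genome, and CACGTG was in 0 of 10 and in 6.49%. CCGAC was in 1 of 10, PIP1C, on the opposite strand 134 bases before the start, and in 12% of all windows. These are counts of letters in one short window and describe no binding.

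The libraries held 11811137 to 21485394 counts on genes. Libraries of replicate 3 stood apart from the rest: deviations of all tested genes from their group mean fell with transcript length in the 4 replicate 3 libraries (Spearman correlation -0.568 to -0.398, across genes). In the other 8 the correlation ran from close to none, 0.00886 in mock L12 replicate 1 and 0.0266 in mock L7 replicate 2, to 0.581 in mock L12 replicate 2. The median transcript over tested genes was 1758 bases long, and 8 of the 10 PIP transcripts were shorter, all but PIP1E and PIP2E. The ABA-response genes RAB18 and HAI1 rose in both leaves, with log2 fold changes of 3.36 and 2.78 in L7 and 4.68 and 4.11 in L12, at an adjusted p of 0.000863 and 0.00582 in L7. The L7 groups of HAI1 overlapped, with ABA replicate 1 at 37.3 against mock replicate 3 at 58.5 normalized CPM. The third ABA-response gene, RD29B, had 4.17, SE 0.86, adjusted p = 0.0143 in L7, where it was not called and its groups did not overlap, and rose in L12 (6.79, SE 0.99, adjusted p = 0.00241). The 4 mesophyll markers summed to at least 13879 CPM (read counts scaled to the normalized library total) in every library, and the 2 root markers to between 0.439 and 7.71 CPM.

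Levels between genes were compared as normalized CPM per kilobase of the longest transcript. PIP2A, one of the main water channels of the rosette and of guard cells, had the highest mean in all 4 groups, 1529 ± 630.3 per kilobase in mock L7, 517 ± 254 in ABA L7, 789.7 ± 482 in mock L12 and 272 ± 82.4 in ABA L12 (SD, n = 3). In ABA L12 its 3 libraries lay above all 3 of PIP1B, the next gene, and in the other 3 groups the libraries of PIP2A overlapped those of the next gene. PIP3B was the lowest member in every group, between 2.55 and 8.07 per kilobase on average, and its libraries did not overlap those of the next gene above it in any group.

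The order between these extremes shifted with the group. In mock L7 the means ran from PIP1C (569 per kilobase) through PIP1B (475), PIP2E (367), PIP1A (302), PIP3A (272) and PIP1D (250.3) to PIP2B (184) and PIP1E (68.2). Each of these overlapped its neighbour in the order except PIP2B and PIP1E. In ABA L12 the means after PIP2A ran from PIP1B (148) through PIP2E (113), PIP1A (106), PIP1D (88.7), PIP1C (78.8) and PIP3A (73.9) to PIP1E (39.1) and PIP2B (15.1). There PIP1B stood clear of PIP2E, and PIP3A, PIP1E and PIP2B stood clear of the gene below each.

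The 10 genes together were lower after ABA in both leaves. Their summed level per kilobase was 3050, 4316 and 4700 in the 3 mock L7 libraries (replicates 1, 2 and 3, in this order throughout) and 1217, 1176 and 1893 in the ABA L7 libraries. It was 2150, 1509 and 3424 in mock L12 and 1062, 835 and 916 in ABA L12. In each leaf the 3 ABA libraries lay below the 3 mock libraries. The members took 0.459% to 0.530% of all counts in mock L7, 0.220% to 0.264% in ABA L7, 0.276% to 0.413% in mock L12 and 0.174% to 0.210% in ABA L12.

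**Figure D1:**
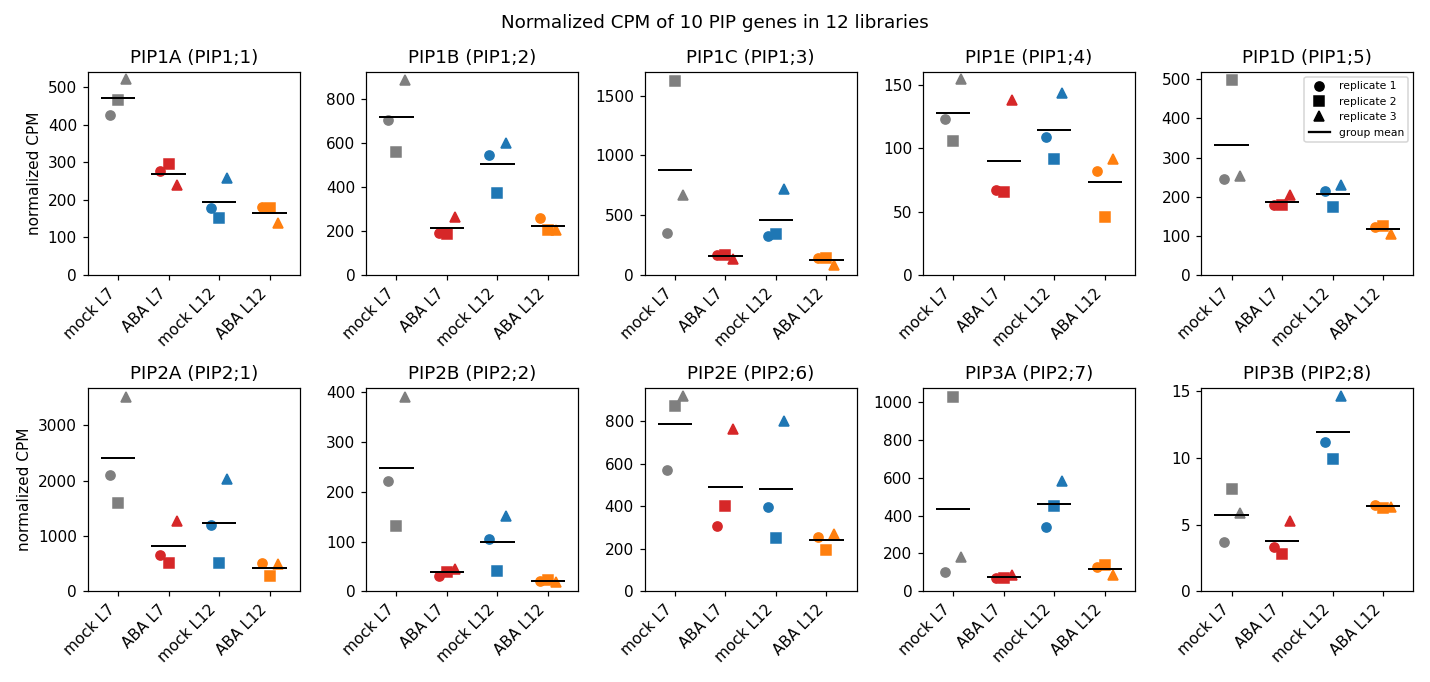
Normalized CPM (y axis, linear from 0, scaled per gene) of each PIP gene in the 4 groups (x axis), where marker shapes are the replicates and black bars the group means of 3 libraries. The ABA libraries of PIP1B lie between 187 and 263 against 373 to 889 in the mock libraries, and 1 mock L7 library of PIP3A stands at 1025.0 against 101 and 184.

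In L7, PIP1B, PIP2A and PIP2B fell after ABA, and the fitted change of each of the other 7 genes was also below 0. A gene was called down-regulated at an adjusted p below 0.01 (Benjamini-Hochberg over 18291 genes, edgeR's quasi-likelihood test) and a log2 fold change below -1. The 3 of 10 called down compare with 2.00% of all tested genes, and 0 of 10 were called up, against 0.935%. The log2 fold change was below 0 in 10 of 10 members and in 48.1% of all tested genes, and the medians were -1.20 and 0.03. It was below -1 in 5 of 10 members and in 9.93% of all genes.

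Among the PIP1 genes of L7, PIP1B (PIP1;2), which contributes to water flow in the rosette and to carbon dioxide uptake in the mesophyll, had 704, 559.5 and 889 normalized CPM in mock and 193, 187 and 263 after ABA. The groups were far apart, with the highest ABA library below the lowest mock library, and the means were 717 ± 165 and 214 ± 42.3 (SD, n = 3). Its level was 3.32-fold lower after ABA, a log2 fold change of -1.73 (SE 0.22, adjusted p = 0.00182).

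PIP1C (PIP1;3) had 353, 1621 and 669 normalized CPM in mock L7 and 169.8, 165 and 135 in ABA L7. The groups did not overlap, but the mock libraries ranged widely and replicate 2 was the high one. The log2 fold change was -2.35 (SE 0.51, adjusted p = 0.0177), which missed the threshold on p, and -1.64 without mock replicate 2. PIP1A (PIP1;1) had 425, 466 and 521 in mock and 276, 294 and 238 after ABA, 2 tight groups that did not overlap, and the log2 fold change was -0.80 (SE 0.24, adjusted p = 0.0587).

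PIP1D (PIP1;5) had 245, 499 and 254 in mock L7 and 178, 179 and 204 after ABA, with a log2 fold change of -0.79 (SE 0.28, adjusted p = 0.0906). Here too mock replicate 2 was the high library. Without it the log2 fold change was -0.38. PIP1E (PIP1;4), which passes hydrogen peroxide in pathogen responses, had 123, 105 and 155 in mock and 67.1, 65.2 and 138 after ABA. Its groups overlapped because ABA replicate 3 was high, and the log2 fold change was -0.56 (SE 0.22, adjusted p = 0.122).

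Among the PIP2 genes of L7, PIP2A (PIP2;1), which passes water and hydrogen peroxide and acts in ABA-triggered stomatal closure, had 2100.3, 1601 and 3513 normalized CPM in mock and 658, 513 and 1267 after ABA. Replicate 3 was highest in both groups, yet the highest ABA library lay below the lowest mock library. The change was 3.02-fold down, a log2 fold change of -1.59 (SE 0.27, adjusted p = 0.00582). PIP2B (PIP2;2), a water channel also known for its part in root water uptake, had 222, 132 and 389.8 in mock and 30.5, 38.5 and 44.7 after ABA. Every ABA library held less than any mock library, and the 6.01-fold decrease was the largest fitted one among the 10 in L7 (log2 fold change -2.59, SE 0.40, adjusted p = 0.0042).

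PIP2E (PIP2;6), a rosette isoform that also contributes to water flow through the veins, had 574, 873 and 921 in mock L7 and 309.7, 404 and 764 after ABA. ABA replicate 3 reached into the mock range, and the log2 fold change was -0.78 (SE 0.32, adjusted p = 0.139). PIP3A (PIP2;7) had 101, 1025 and 184 in mock and 72.2, 68.8 and 85.9 after ABA. The groups did not overlap, but the distance rests largely on mock replicate 2. The log2 fold change was -2.11 (SE 0.64, adjusted p = 0.06), and -0.89 without that library. PIP3B (PIP2;8), the weakly expressed relative of PIP3A, had 3.69, 7.71 and 5.86 in mock and 3.29, 2.78 and 5.24 after ABA, overlapping groups with a log2 fold change of -0.62 (SE 0.31, adjusted p = 0.212).

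Each of the 10 genes was lower in ABA L7 than in the mock L7 library of the same replicate number in 3 of 3 pairs. How many of all tested genes did so was not counted, so this gives no comparison with other genes. The groups did not overlap, with ABA lower, for 7 of 10 members and for 9.59% of all tested genes. At an adjusted p below 0.05 with no limit on the fold change, PIP1C joined the 3 called genes, 4 of 10 against 6.63% of all tested genes. The calls depended on single libraries: of the 10 genes, 1 was called without mock replicate 1, 2 without mock replicate 2, 0 without mock replicate 3, 0 without ABA replicate 1, 2 without ABA replicate 2 and 0 without ABA replicate 3. Calls over all tested genes changed as well, with 222, 215, 66, 79, 156 and 35 down in the same order, against 366 with all libraries. Without the replicate number as a block, 0 of 10 were called (adjusted p = 0.0143 for PIP1B, 0.142 for PIP2A and 0.0199 for PIP2B). Over all alternatives the log2 fold change stayed between -1.81 and -1.28 for PIP1B, between -1.69 and -1.13 for PIP2A and between -3.00 and -2.13 for PIP2B.

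**Figure D2:**
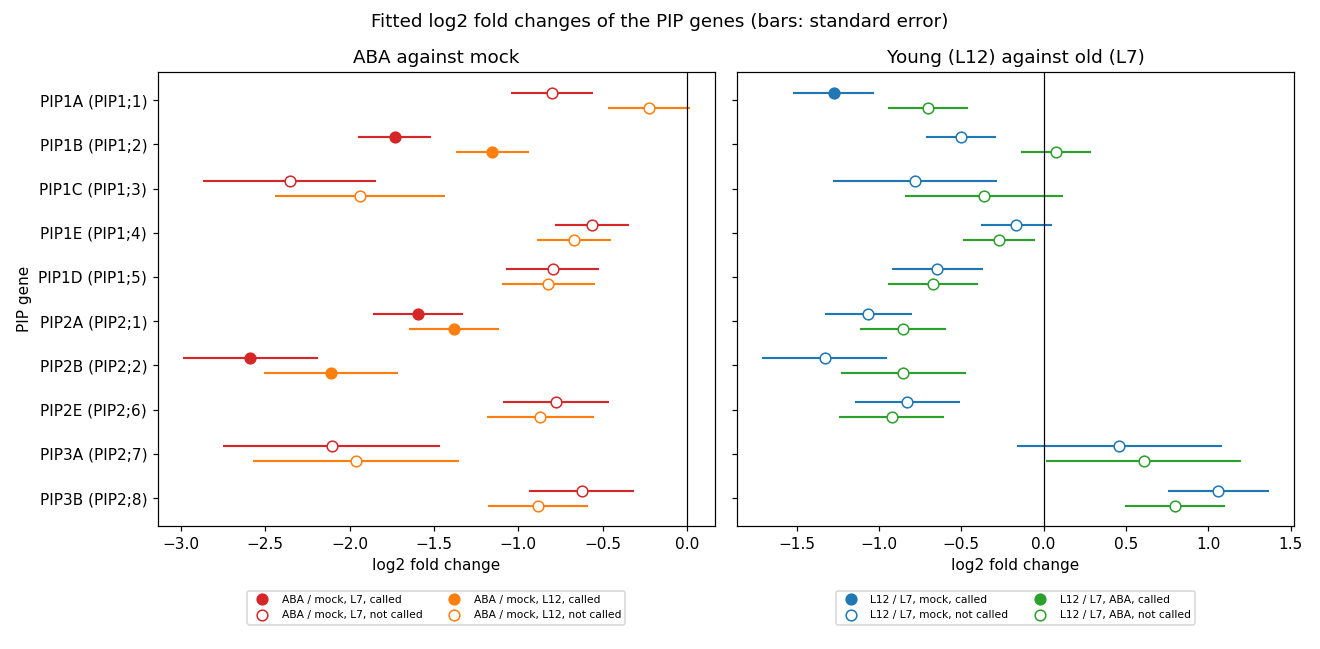
Fitted log2 fold changes (x axis) of the 10 PIP genes (y axis) with standard errors as bars, for ABA against mock in each leaf on the left and for L12 against L7 under each treatment on the right, filled where called. All 20 points on the left lie below 0, and PIP1A in L12 lies at -0.23 and turned to 0.16 with library totals as the only scaling.

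In L12 the same 3 genes, PIP1B, PIP2A and PIP2B, were called down-regulated after ABA, 3 of 10 against 3.08% of all tested genes. Again 0 of 10 were called up, against 1.47%. The log2 fold change was below 0 in 10 of 10 members, though for PIP1A it turned to 0.16 when library totals alone set the scale, against 48.2% of all tested genes. The median was -1.02 over the members and 0.03 over all genes, and 5 of 10 members and 11.1% of all genes lay below -1.

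PIP1B had 547, 373 and 602 normalized CPM in mock L12 and 258, 205 and 204 after ABA. The groups did not overlap, and the means were 507 ± 119 and 223 ± 30.9 (SD, n = 3), a 2.22-fold decrease with a log2 fold change of -1.15 (SE 0.22, adjusted p = 0.00749). PIP2A had 1191, 511 and 2025 in mock and 511, 278 and 492 after ABA. It was lower in each same-numbered pair, but mock replicate 2 (511.0) was as low as ABA replicate 1 (511.3), so the groups overlapped, and the log2 fold change was -1.38 (SE 0.27, adjusted p = 0.00849).

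PIP2B had 106, 40.4 and 152 in mock L12 and 20.1, 22.2 and 18.8 after ABA. The 3 ABA libraries lay close together and below every mock library, with means of 99.5 ± 56.1 in mock and 20.4 ± 1.72 after ABA (SD, n = 3). The 4.32-fold decrease (log2 fold change -2.11, SE 0.40, adjusted p = 0.00764) was again the largest fitted one among the 10.

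PIP1C had 329, 347 and 717 in mock L12 and 146, 140.1 and 80.1 after ABA, and PIP3A had 342, 452 and 584 and 131, 139.6 and 85.2. Neither pair of groups overlapped, and unlike in L7 no mock library of PIP3A stood far from the others. The log2 fold change of PIP1C was -1.94 (SE 0.51, adjusted p = 0.0303) and that of PIP3A -1.96 (SE 0.61, adjusted p = 0.0552), both beyond -1 but short of the threshold on p.

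The remaining 5 members of L12 had fitted decreases of less than 1 on the log2 scale. PIP1D had 214, 175 and 229.9 in mock and 122, 126 and 106 after ABA (log2 fold change -0.82, adjusted p = 0.0694), with no overlap. PIP3B had 11.2, 9.96 and 14.6 in mock and 6.49, 6.24 and 6.36 after ABA (-0.89, adjusted p = 0.0696), also with no overlap and with 3 nearly equal ABA libraries. PIP1E had 109, 91.3 and 143 in mock and 82.2, 46.0 and 91.2 after ABA (-0.67, adjusted p = 0.0642). Its highest ABA library lay just below its lowest mock library. PIP2E had 398, 251 and 803 in mock and 258, 195 and 272 after ABA (-0.87, adjusted p = 0.0883), where mock replicate 2 fell inside the ABA range. PIP1A had 178, 151 and 257 in mock and 179.8, 177 and 139.7 after ABA. Among its pairs, only the third was lower after ABA, and the log2 fold change was -0.23 (SE 0.24, adjusted p = 0.526).

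In L12, 9 of the 10 genes were lower after ABA in 3 of 3 pairs, a count not made over all tested genes. The groups did not overlap, with ABA lower, for 7 of 10 members and for 16.9% of all tested genes. With an adjusted p below 0.05 and no limit on the fold change, 4 of 10 passed, against 9.26%. The calls again depended on single libraries: 4 of 10 were called without mock replicate 2, and 0 without any one of mock replicate 1, mock replicate 3 and the 3 ABA replicates. Over all tested genes, 945 were called down without mock replicate 2 and 119 to 184 without one of the others, against 563 with all libraries. Without the replicate block 0 of 10 were called (adjusted p = 0.0418 for PIP1B, 0.127 for PIP2A and 0.0257 for PIP2B). Over all alternatives the log2 fold change in L12 ran from -1.30 to -0.79 for PIP1B, whose upper end lies inside the fold limit, from -1.61 to -1.005 for PIP2A and from -2.68 to -1.62 for PIP2B. Whether there were fewer cells that use a PIP gene or less PIP RNA per cell cannot be told apart in such whole-leaf samples.

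The response to ABA was not shown to differ between the leaves for any member. The difference (L12 minus L7) in log2 fold change lay between -0.26 (PIP3B) and 0.58 (PIP1B), with standard errors of 0.30 to 0.86 and adjusted p of 0.724 to 0.993. At an unadjusted p below 0.05, 0 of 10 passed. PIP1B, PIP1A and PIP2B had differences of 0.58 (SE 0.30), 0.57 (SE 0.34) and 0.48 (SE 0.53), each above 0 in 3 of 3 replicates. The share of all tested genes with such agreement was not counted. Of all 18291 tested genes, 0 (0%) passed this test with edgeR, 1358 had an unadjusted p below 0.05, while with DESeq2 29 passed with a positive and 6 with a negative difference, 0 of them members.

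Between the leaves under mock treatment, PIP1A was lower in L12 than in L7 and was the only member called. The comparison shares its mock L7 libraries with the ABA comparison in L7 and its mock L12 libraries with that in L12. PIP1A had the 425, 466 and 521 normalized CPM given above in mock L7 and 178, 151 and 257 in mock L12. Every L12 library was below every L7 library, a 2.42-fold difference (log2 fold change -1.27, SE 0.24, adjusted p = 0.00437). The 1 of 10 called down compares with 8.10% of all tested genes, and 0 of 10 called up with 6.81%, so the members' shares were near those of all genes. The call was lost when any one of the compared libraries other than mock L12 replicate 3 was left out, and without the replicate block.

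PIP2A and PIP2B had log2 fold changes beyond -1, -1.07 (SE 0.26, adjusted p = 0.0116) and -1.33 (SE 0.38, adjusted p = 0.0201), but missed the threshold on p and their groups overlapped. PIP1D was the other member whose L12 libraries all lay below its L7 libraries, so the groups did not overlap for 2 of 10, against 17.3% of all tested genes. PIP2E, PIP1D and PIP1B had log2 fold changes of -0.83, -0.64 and -0.50 (adjusted p = 0.059 to 0.0826). PIP1C (-0.78, adjusted p = 0.223) and PIP1E (-0.17, adjusted p = 0.553, and 0.19 with library totals as the scale) had the largest adjusted p among the members below 0.

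PIP3B and PIP3A, 84% identical in coding sequence, were the 2 members with higher fitted levels in young leaves. PIP3B had 3.69, 7.71 and 5.86 in mock L7 and 11.2, 9.96 and 14.6 in mock L12. Each L12 library was above each L7 library, and the log2 fold change was 1.06 (SE 0.30, adjusted p = 0.0205), past the fold limit but not past 0.01. It was the only member whose groups did not overlap with L12 higher, 1 of 10 against 14.1%. At an adjusted p below 0.05 with no fold limit, PIP1A, PIP2A and PIP2B were lower in L12, 3 of 10 against 20.0% of all tested genes, and 1, PIP3B, was higher (21.2%). PIP3A had 101, 1025 and 184 in mock L7 and 342, 452 and 584 in mock L12. Its log2 fold change of 0.46 (SE 0.62, adjusted p = 0.569) came from groups that overlapped, since 2 L7 libraries were below all L12 libraries and L7 replicate 2 was above them. Without mock L7 replicate 2 the log2 fold change was 1.69, and PIP3A and PIP3B were both called up, 2 of 10 against 476 of the 18352 genes tested there.

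Between the ABA-treated leaves, which share their libraries with the ABA comparisons, no member was called. Called down were 0 of 10 against 3.68% of all tested genes, and called up 0 of 10 against 3.13%. At an adjusted p below 0.05 with no fold limit, 3 of 10 were lower in L12, against 17.8%. An unadjusted p below 0.05, in either direction, was reached by 6 of 10 members and by 8871 of all 18291 tested genes. The log2 fold changes ran from -0.92 for PIP2E (adjusted p = 0.0441) through -0.85 for PIP2A (0.0298) and -0.70 for PIP1A (0.0435) to 0.61 for PIP3A (0.428) and 0.80 for PIP3B (0.0615). PIP1B was nearly equal in the leaves after ABA, at 187 to 263 in L7 and 204 to 258 in L12 (0.08, adjusted p = 0.794). The L12 libraries lay below the L7 libraries without overlap for 5 of 10 members (23.8% of all tested genes) and above for 1, PIP3B (24.5%).

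The make-up of the PIP pool is given as the share of each gene in the summed level per kilobase. PIP2 genes made up 44.9% to 66.1% of the pool over the 12 libraries, and PIP2A alone 21.1% to 47.5%. PIP2B took 2.27% to 6.17% of the pool in mock L7 and 1.75% to 2.43% in ABA L7, and 1.99% to 3.67% in mock L12 and 1.41% to 1.98% in ABA L12. The share of PIP1A was on the whole higher after ABA, from 6.94% to 8.95% in mock L7 to 8.09% to 16.1% in ABA L7, and from 4.82% to 6.44% in mock L12 to 9.80% to 13.6% in ABA L12. These shares sum to a fixed total and are given without a test.

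**Figure D3:**
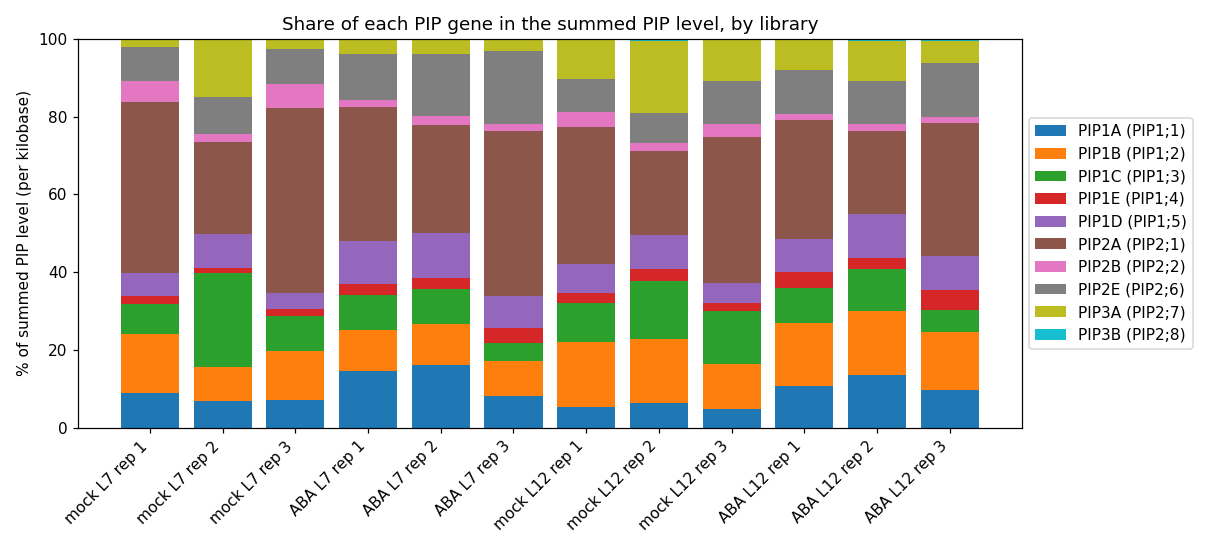
Share in percent (y axis) of each PIP gene in the summed per-kilobase level of the 10 genes, 1 stacked bar per library (x axis). PIP2A is the widest band in every bar except mock L7 replicate 2, where PIP1C is, and PIP3A takes 14.8% in mock L7 replicate 2 against 2.06% and 2.44% in the other mock L7 libraries.

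In mock L7 replicate 2, PIP1C and PIP3A were far above the other mock L7 libraries and PIP2A and PIP2B were the lowest. PIP1C took 24.2% of the pool there and 7.47% and 9.19% in the others, and PIP2A took 23.6% there and 43.8% and 47.5% in the others. The same library was also high for the tonoplast aquaporin TIP2;1, a channel for water and ammonia, at 156, 1469.6 and 334 normalized CPM in the mock L7 libraries. What sets this library apart was not tested.

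Some of the members formed sets that deviated together within groups. Over the deviations of the 12 libraries from their group means, PIP1B, PIP2A and PIP2B correlated pairwise with Pearson's r of 0.806 to 0.915, and PIP1C, PIP1D and PIP3A with r of 0.823 to 0.919. Between the sets, the 9 pairs had r of -0.332 to -0.00183. The other members did not split as clearly. PIP2E had r of 0.630 to 0.831 with the first set and 0.291 to 0.403 with the second. PIP3B had 0.192 to 0.494 and 0.642 to 0.725, PIP1A 0.402 to 0.634 and 0.224 to 0.615, and PIP1E 0.495 to 0.868 and -0.174 to -0.0857. The sets were chosen after their values were seen, and the points share libraries, normalization and the length-related difference of replicate 3, so the correlations are a description with no test. In the first set replicate 3 was the highest mock library of each gene in both leaves. In the second set mock L7 replicate 2 was the highest L7 library of each, and replicate 3 the highest mock L12 library. The largest deviations of the second set were those of mock L7 replicates 1 and 2. They were -1.04 and 1.16 for PIP1C, -0.36 and 0.67 for PIP1D and -1.40 and 1.94 for PIP3A. Correlations without these libraries were not computed.

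**Figure D4:**
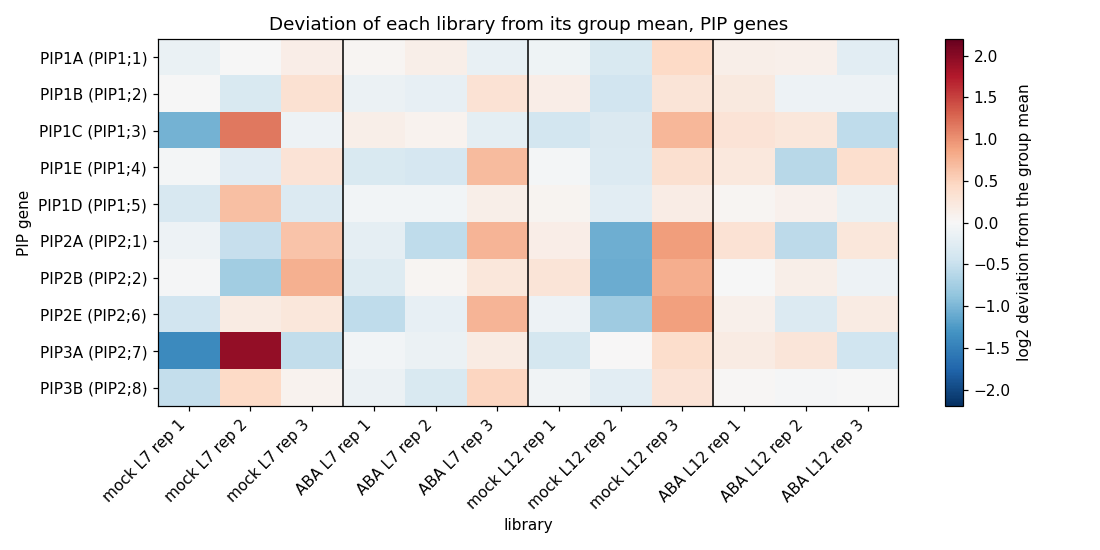
Log2 deviation of each library (x axis) from its group mean for each PIP gene (y axis), with red above and blue below the mean and lines between groups. Mock L7 replicate 2 is red for PIP1C, PIP1D and PIP3A (1.16, 0.67 and 1.94) and blue for PIP1B, PIP2A and PIP2B (-0.33, -0.51 and -0.77).

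Outside the 10 genes, the count table holds 25 further aquaporin genes, of which 13 were tested: 3 PIP, 4 TIP (tonoplast), 3 NIP (nodulin-26-like, several of which pass boric acid) and 3 SIP genes (small basic, of the endoplasmic reticulum). In L7, 4 of 13 were called down (2.00% of all tested genes) and 0 up after ABA, and in L12 5 (3.08%) and 0, with medians of -1.76 and -1.49. The count in L7 was 7 with DESeq2, 1 without the replicate block, 1 with only the compared groups, 2 without ABA replicate 1 and 1 without ABA replicate 3. The count in L12 was 7 with DESeq2, 2 without the block, 2 with only the compared groups, 3 without ABA replicate 1, and 2 without any one of mock replicate 1, mock replicate 3, ABA replicate 2 and ABA replicate 3. In either leaf it was 1 with replicate 1 left out of all groups and 0 with replicate 3 left out. PIP2C, the near-copy of PIP2B, had 34.9, 17.8 and 70.1 normalized CPM in mock L7 and 1.38, 2.55 and 4.44 in ABA L7, and fell by 13.4-fold (log2 fold change -3.74, SE 0.43, adjusted p = 0.00129). In L12 its log2 fold change was -3.72 (SE 0.44, adjusted p = 0.000944). With 21.7% of its transcript windows of 50 bases shared with PIP2B, the counts of the pair are uncertain to the extent that shared reads were dropped or split.

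TIP1;1, an abundant vacuolar water channel, fell in both leaves. It had 447, 403 and 709 normalized CPM in mock L7 and 25.7, 41.2 and 67.9 in ABA L7, and 424, 276 and 569.5 in mock L12 and 49.1, 35.6 and 38.7 in ABA L12. Neither pair of groups overlapped (log2 fold changes -3.55 and -3.28, adjusted p = 0.000611 and 0.00044). TIP2;2 (log2 fold changes -2.17 and -1.72) and the boric acid channel NIP6;1 (-3.30 and -2.54) were also called down in both leaves, and SIP1;2 in L12 (-2.87). Counts of NIP6;1 and SIP1;2 were low. NIP6;1 had 40, 22 and 25 counts in ABA L7 and 13, 9 and 12 in ABA L12. SIP1;2 had 77, 80 and 58 counts in mock L12 and 15, 9 and 8 in ABA L12. Over the alternatives the largest adjusted p was 0.0455 and 0.108 for TIP2;2 in L7 and L12, 0.0367 and 0.0611 for NIP6;1, and 0.0665 for SIP1;2 in L12, and it was 0.0189 and 0.0179 for TIP1;1. PIP2;5 was the tested PIP gene with fitted values above 0, 0.16 in L7 and 1.23 in L12 (adjusted p = 0.756 and 0.0241), and was not called. The 12 aquaporins not tested had low counts, and 2 of them had 0 counts in all libraries.

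**Figure D5:**
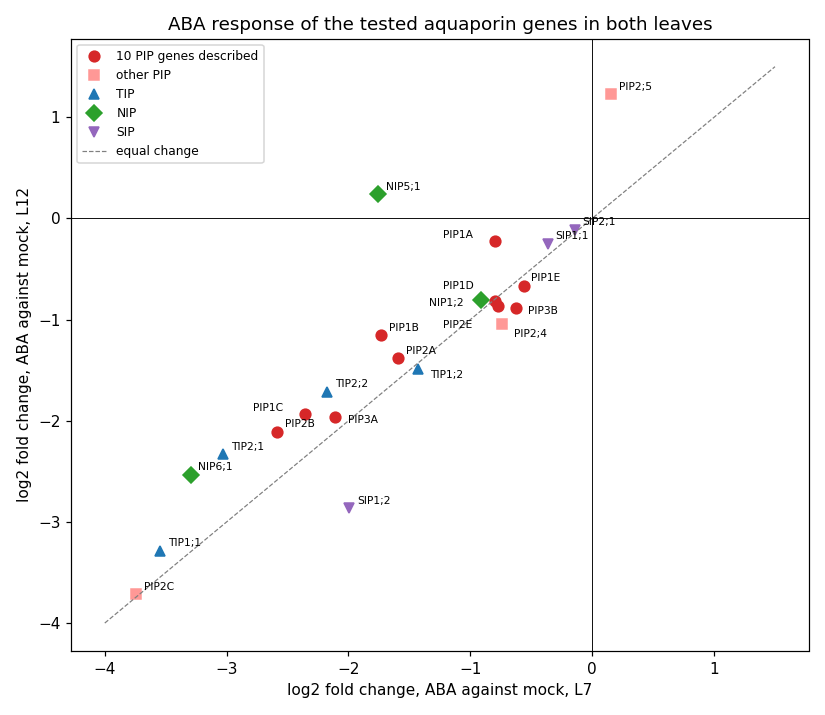
Log2 fold change after ABA in L7 (x axis) against that in L12 (y axis) for the 23 tested aquaporin genes, coloured by family, with a dashed line of equal change. The 10 PIP genes run from PIP1A at -0.80 in L7 and -0.23 in L12 (0.16 with library totals as the only scaling) to PIP2B at -2.59 and -2.11, and PIP2C and TIP1;1 lie beyond them.

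The genes of 10 proteins known to act on PIP proteins were tested as well. They include the kinase OST1, which phosphorylates PIP2A, the trafficking syntaxins SYP121 and SYP61, the ABA-induced protein TSPO, which binds PIP3A for degradation, and the RMA ubiquitin ligases. In L7, 0 of 10 were called in either direction. In L12, TSPO rose (log2 fold change 4.77, SE 0.74, adjusted p = 0.00315), with 0.0862, 0.243 and 0.366 normalized CPM in mock (2, 6 and 5 counts) and 3.73, 6.06 and 7.79 after ABA, and SYP121 fell (-1.96, SE 0.33, adjusted p = 0.00491). Their values in L7 were 1.79 and -1.06 (adjusted p = 0.0785 and 0.0584), and the difference between the leaves did not pass (adjusted p = 0.549 and 0.714). OST1 had log2 fold changes of 0.56 and 0.47 (adjusted p = 0.425 and 0.453). Under mock treatment TSPO, RMA2 and UBC32 were lower in L12 than in L7 (-4.65, -2.70 and -1.15). The L12 calls of TSPO and SYP121 were both lost without the replicate block and without any one of the compared libraries other than mock L12 replicate 2, with largest adjusted p over the alternatives of 0.0327 and 0.0623. The 3 mock calls were lost without the block as well, with largest adjusted p of 0.0216 for TSPO, 0.0125 for RMA2 and 0.0681 for UBC32. With 1 library left out, UBC32 was called only without mock L7 replicate 2, TSPO was not called without mock L7 replicate 3 or mock L12 replicate 2, and RMA2 was called each time.

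Markers of leaf cell types moved in part with the PIP genes. The 4 mesophyll markers were below 0 after ABA in 4 of 4 in both leaves, with CA1, the main chloroplast carbonic anhydrase, called down in L7 (-2.62), and their summed level was 25869 to 47068 normalized CPM in mock L7, 13879 to 23280 in ABA L7, 29965 to 56106 in mock L12 and 18873 to 25333 in ABA L12. The median log2 fold change of the mesophyll markers was -1.03 in L7 and -0.88 in L12. Of 5 guard cell markers 0 were called, but 4 of 5 were below 0 in L7 and 3 of 5 in L12, with medians of -1.40 and -1.14. Among them MYB60 had -1.44 and -1.14 (adjusted p = 0.05 and 0.0735), HT1 -1.44 and -1.26 (0.0512 and 0.0454) and KAT1 -1.40 and -1.30 (0.108 and 0.0961), while SLAC1 had 0.88 and 0.60. The guard cell markers summed to 12.3 to 26.3 CPM in mock L7, 13.6 to 16.8 in ABA L7, 26.1 to 60.1 in mock L12 and 27.2 to 39.1 in ABA L12. Of 5 phloem and 5 epidermis markers 0 were called in either leaf, with medians of -0.02 and 0.29 in L7 and 0.25 and 0.21 in L12. Of 4 xylem markers 1, XCP1, was called down in both leaves, and the medians were 0.14 in L7 and -0.12 in L12. XCP2 (0.46 and 0.23) and IRX3 (0.77 and 0.58) lay above 0 in both leaves, and VND7 (-0.18 and -0.47) below. The xylem markers summed to 25.4 to 30.9 CPM in mock L7, 19.2 to 34.3 in ABA L7, 42.2 to 75.4 in mock L12 and 36.4 to 60.9 in ABA L12. The bundle sheath marker SULTR2;2 had log2 fold changes of -0.82 in L7 (16.05 to 18.8 CPM in mock, 7.46 to 12.0 after ABA) and -0.02 in L12. The part of these in the PIP result was not tested.

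The genes whose pattern was most like the mean PIP profile included several of the photosynthetic apparatus. Over 12 libraries with the replicate effect removed, the 5 highest Pearson correlations with the mean centred log2 profile of the 10 genes, among genes other than aquaporins, were those of PSAK (AT1G30380, a photosystem I subunit, 0.991), LHCB4.1 (AT5G01530, a light-harvesting antenna protein, 0.989), DRT112 (AT1G20340, a plastocyanin, 0.989), AT5G02160 (0.989) and PSBTN (AT3G21055, a photosystem II subunit, 0.989). The members' own correlations with their mean profile ran from 0.398 (PIP3B) to 0.979 (PIP1C). Of these 5 genes, 0 were among the top 5 after adjustment for transcript length and GC content and 2 with the replicate effect kept. The points share their libraries and normalization.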

How the data were processed

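Strand-specific poly(A) RNA-seq libraries were aligned and counted by the authors. The submitters' processing notes name CASAVA 1.8.2, cutadapt 1.5, TopHat2 2.0.10, HTSeq 0.6.1 and TAIR10, and how HTSeq treated strand and overlapping reads is not stated in these sources. The deposited values are raw counts per gene for 12 libraries. Summary lines without a gene (5.97% to 10.3% per library) were left out.

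The 10 PIP genes and the other gene lists were chosen with earlier results of these data known. A mean of 10 or more counts was required (18291 of 32678 genes), and these were fitted with edgeR 4.0.16 in R 4.3.3 (TMM normalization, quasi-likelihood test) over all 12 libraries, with group and replicate number as factors (the replicate block), since replicate was also a term of the study's limma-voom model, and p-values were adjusted by Benjamini-Hochberg over all tested genes. Standard errors and log2 fold changes are from this fit, levels are TMM-normalized CPM, and per-kilobase levels use the longest TAIR10.1 transcript. Depth was 11811137 to 21485394 counts, and the replicates are repeats of the experiment. With the replicate block, p-values reflect how far group differences varied across repeats, after shifts shared by a whole repeat were removed. No libraries of the same group were copies of one another (chi-square per degree of freedom 29.6 to 248), and pairs from different groups were not compared in this way. The log2 deviations and the likeness of profiles used log2(CPM + 0.5). All named genes are members of the lists, and the 5 genes most like the mean PIP profile were named by their correlation. Of all genes, 31904 matched TAIR10.1 in RefSeq, which also supplied names and sequences. Alternatives were DESeq2 1.42.0, limma 3.58.1 with voom, RLE and library-size scaling, other filters, robust dispersion, no replicate block, a transcript length and GC correction, only the compared groups, an adjusted p of 0.05 with no fold limit, and leaving out each replicate or library. Scripts were tested on simulated data.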

Additional observations from a re-analysis of the deposited data

How the results depend on the processing

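No member changed sign for ABA against mock in L7 under any alternative run. The number of PIP genes called down there was 3 in the fit reported, 5 with DESeq2 (adding PIP1C and PIP3A), 0 without the replicate block, 0 with only the compared groups fitted, and 0 to 2 with a replicate or library left out. In L12 it was 3, against 5 with DESeq2, 1 with RLE scaling, 1 with library totals only, 0 without the replicate block, 0 with only the compared groups, and 0 to 4 with a replicate or library left out. At an adjusted p below 0.05 with no fold limit it was 4 in each leaf. For L12 against L7 under mock treatment, 1 was called down, against 3 with DESeq2, 2 with voom, 0 with library totals only, 0 without the replicate block, 0 with only the compared groups, 3 at an adjusted p below 0.05 and 0 to 1 with a library or replicate left out. There 0 were called up, against 1 with DESeq2, 1 with library totals only, 1 at an adjusted p below 0.05 and 0 to 2 with one left out. Of all 18291 tested genes, 1482 were called down and 1246 up in the fit reported, and 2122 and 2571 with DESeq2. With voom 1653 were called down, and with library totals only 601 down and 1049 up. For L12 against L7 after ABA, 0 members were called down, against 3 at an adjusted p below 0.05.

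Library totals as the only scaling moved the median of all genes on the log2 scale to 0.49 (ABA, L7), 0.42 (ABA, L12), 0.39 (leaf age, mock) and 0.25 (leaf age, ABA), and turned PIP1A after ABA in L12 to 0.16 and PIP1E between the leaves to 0.19 (mock) and 0.0057 (ABA), so that these 3 values remained below the shifted median. The mean summed level per kilobase with library totals was 3031 in mock L7, 1471 in ABA L7, 2206 in mock L12 and 1188 in ABA L12. With TMM normalization it was 4022, 1429, 2361 and 938 in the same order, so the decrease after ABA was smaller with library totals in both leaves. With a replicate or library left out, PIP1A after ABA in L12 ran from -0.43 to 0.19, PIP1C between mock leaves from -1.43 to 0.029, PIP3A between mock leaves from -0.19 to 1.71 and PIP1B between ABA leaves from -0.046 to 0.32. The difference between the leaves in the response turned to 0.023 for PIP1D without the replicate block and to 0.021 with the length and GC correction, and to -0.14 for PIP3A with voom. With one left out it ran from -0.44 to 1.203 for PIP1C, -0.33 to 0.15 for PIP1E, -0.58 to 0.42 for PIP1D, -0.030 to 0.64 for PIP2A, -0.50 to 0.55 for PIP2E, -1.21 to 1.15 for PIP3A and -0.81 to 0.19 for PIP3B. The cause of these changes was not tested.

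Deviations of same-numbered libraries from their group means correlated at -0.0059 to 0.667 (median 0.389, over 0.1 in 16 of 18 pairs), and those of differently numbered libraries had a median of -0.235. Because deviations sum to 0 within each group, a positive value for same-numbered libraries largely fixes a negative value for the others, so the second median adds no separate information. With no replicate block, 37 and 72 genes of all tested were called down in L7 and L12, against 366 and 563 with it, and with DESeq2 1023 and 1263. With replicate 3 left out, edgeR called 0 genes in either leaf, where 3793 (L7) and 3152 (L12) had an unadjusted p below 0.05.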
